A study of Mus musculus with 4 samples.

Results

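The miR-142a hairpin gives rise to mmu-miR-142a-5p and mmu-miR-142a-3p, and both were taken from the deposited small RNA table by name, 2 of the 1979 mature miRNAs it lists. The table covers resting bone marrow-derived macrophages (BMDMs) of 3 genotypes at the mir-146a locus, in 4 libraries. WT A and WT B came from wild-type mice. The KO library came from homozygous mice whose germline lacks the mir-146a pre-miRNA. The 3′F library came from mice homozygous for the flip allele, in which the duplex strands of miR-146a exchange bases outside the seed and the seed is kept. All mice were of a mixed 129/B6 background and 6 to 7 months old, and no mir-142 allele was altered in any of them. Marrow was cultured for 8 to 9 days with 10 ng/ml of M-CSF, the growth factor that drives macrophage differentiation, and the cells were then held for 16 h in fresh medium without LPS. Each mutant line descends from targeted V6.5 embryonic stem cells, and the labels do not say whether a library pools the 3 mice named per genotype. Since KO and 3′F are single libraries, nothing measured in them could be checked against a replicate, and no p-value is given. In the table the KO and 3′F libraries carry the letter A, as WT A does, and the study uses these letters to identify culture replicates. The WT libraries give the only spread against which their values can be read.

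miR-142 is a hallmark miRNA of blood cells. It is made in nearly all hematopoietic lineages and is close to absent elsewhere, which is why target sites for its 3p strand are used to silence transgenes in blood cells. Like other miRNAs it is cut from a hairpin by Drosha and Dicer, and usually 1 strand of the resulting duplex is retained by Argonaute. For miR-142 both strands are known to be loaded and to repress targets, each through its own seed, the bases at positions 2 to 8 that pair with messenger RNAs.

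The sequences of the miR-142 locus are shown because the arms carry different seeds although they are nearly complementary, and because a neighboring miRNA of the same number derives from the opposite strand. They are RefSeq sequences on GRCm38.p6, written 5′ to 3′ with the seed in capitals.
mmu-miR-142a-5p: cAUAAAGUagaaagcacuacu
mmu-miR-142a-3p: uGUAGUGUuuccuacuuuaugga
mmu-miR-142b: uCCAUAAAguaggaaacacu

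In the hairpin, with the mature arms in capitals, the 5p strand occupies bases 4 to 24 and the 3p strand bases 40 to 62.
mmu-mir-142a hairpin: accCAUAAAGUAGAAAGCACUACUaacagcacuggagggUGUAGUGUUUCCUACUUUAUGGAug

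The fold of lowest energy predicted by RNAfold (-26.9 kcal/mol) paired 19 of the 21 bases of the 5p strand with the 3p strand. Among 1679 mature mouse miRNAs in the RefSeq table, 0 others carried the seed of either arm. The hairpin of 64 nt lies on the plus strand of chromosome 11, at chr11:87756864-87756927 (GRCm38), annotated as Mir142 (ENSMUSG00000105196.1). It is in intron 1 of transcript Mir142hg-201 of the lincRNA gene Mir142hg, 111 bp before the second exon. The nearest protein-coding gene, Tspoap1, starts 3614 bp downstream on the same strand. The miR-142b hairpin is annotated on the minus strand at chr11:87756841-87756955 and encloses it. The mature miR-142b is the exact reverse complement of bases 4 to 23 of miR-142a-3p. It also resembles miR-142a-5p, from which it differs over 18 aligned bases by A11G and G14A, counted from 1 at the 5′ end of miR-142a-5p.

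The labels were first checked on the targeted miRNA, which can tell wild type from mutant but not KO from 3′F or WT A from WT B. The wild-type sequence miR-146a-5p had 6253 RPM (WT A) and 5485 RPM (WT B), but 13.4 RPM in KO and 6.64 RPM in 3′F. Counts summed to between 11410940 (WT B) and 19087640 (KO) per library, and between 897 and 942 miRNAs had a count above 0. Levels are the deposited reads per 1000000 counts (RPM). On this scale the median difference between WT A and WT B over the 251 miRNAs with a mean level of 10 RPM or more, here called expressed, was -0.07 (log2), and TMM scaling moved it to 0.07. miR-21a-5p alone held between 33.4% and 37.9% of a library, so the level of every other miRNA is relative to a total that it dominates. Intervals are exact 95% Clopper-Pearson intervals of a share of a library's counts, which cover counting error only. Reads of short RNAs also depend on how well each sequence is ligated, so levels of different miRNAs, the 2 arms included, compare reads rather than molecules.

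miR-142a-3p was the abundant strand. WT A held 29378.5 counts of it and WT B 12789, while KO held 21275 and 3′F 17341.5. Its level was 1721 RPM in WT A (interval 1701 to 1740) and 1121 in the WT B library (1101 to 1140). The KO library had 1115 RPM (1100 to 1130) and the 3′F library 1071 (1055 to 1087). WT A stood apart on the high side, and the other libraries lay close together. The WT level was 1421 ± 424 RPM (SD, n = 2 libraries), and the KO and 3′F values lay within 1 SD of it.

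Of miR-142a-5p, WT A held 4577 counts and WT B 1936.5, against 4185.5 for KO and 3360.5 for 3′F. WT A had 268 RPM (interval 260.4 to 276.0) and WT B 170 RPM (162 to 177). The KO library had 219 RPM (213 to 226) and the 3′F library 208 (200.5 to 215). The highest and the lowest value were both wild-type, and the mutants lay between them. In WT it was 219 ± 69.6 RPM (SD, n = 2 libraries). Fractional counts appear for both arms, so a portion of the reads was split with other lines, which the table does not name. Over the 4 libraries, the SD of log2(RPM + 1) was 0.32 for miR-142a-3p and 0.27 for miR-142a-5p, against a median of 0.19 over expressed miRNAs.

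**Figure D1:**
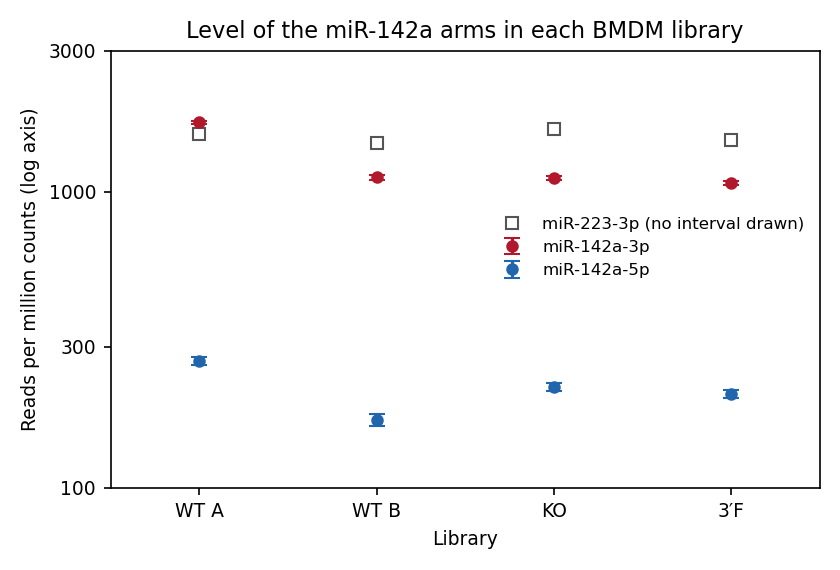
Level in RPM (log axis) of miR-142a-3p (red), miR-142a-5p (blue) and, for scale, the myeloid miRNA miR-223-3p (open squares) in the 4 libraries, with bars for the exact 95% counting interval of the miR-142a arms. miR-142a-3p is at 1721 RPM in WT A and between 1071 and 1121 RPM in the others, while miR-142a-5p runs from 170 RPM in WT B to 268 in WT A.

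By level, miR-142a-3p had rank 37 among all miRNAs of WT A and rank 60 of WT B, and ranks 56 and 53 of KO and 3′F. miR-142a-5p had ranks 95, 115, 104 and 104 in the same order. Both were above the median level of expressed miRNAs, 100.1 RPM. In WT A the neighbors of miR-142a-3p in the order of levels were let-7e-5p at 1945 RPM and miR-423-3p at 1645 RPM. In the other libraries its neighbors were closer. In WT B it followed miR-1839-5p at 1123 RPM and preceded miR-30e-5p at 1101. In KO it followed miR-484 at 1127 RPM and in 3′F miR-93-5p at 1087, and in both it preceded miR-1198-5p, at 1085 and 1027 RPM. All of these neighbors lie closer to it than the SD of 424 RPM between the WT libraries. That SD is a spread of its level between libraries, not the error of an order within 1 library. In WT A its counting interval (1701 to 1740 RPM) held neither neighbor, while in WT B, KO and 3′F the interval held the neighbor above. Its place was not stable between the WT libraries, with ranks 37 and 60. In WT A miR-142a-5p lay between miR-378c at 278 RPM and miR-339-5p at 264 RPM. Its interval (260.4 to 276.0 RPM) held the latter, and its place also differed between the WT libraries.

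miR-142b, the antisense product, was almost unread. It had 3 and 2 counts in WT A and WT B, and 1 and 4 counts in KO and 3′F, at or near a floor of 3 counts, which corresponds to between 0.157 and 0.263 RPM. Its counts were whole in all libraries.

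The label of the cells was examined with 7 miRNAs of blood lineages and 12 of other tissues, listed from general knowledge. miR-223-3p, the characteristic miRNA of myeloid cells, was at 1574 RPM in WT A, at 1466 RPM in WT B, 1636 RPM in the KO library and 1503 RPM in the 3′F library. miR-142a-3p was thus read 1.09 times as often as miR-223-3p in WT A, but 0.764, 0.681 and 0.712 times as often in WT B, KO and 3′F. miR-223-3p varied little, with WT A above WT B by 0.10 on the log2(RPM + 1) scale. The lymphocyte miRNA miR-150-5p was at 2.93, 2.80, 2.51 and 1.54 RPM in WT A, WT B, KO and 3′F. By contrast, miR-181a-5p, listed for lymphoid and stem cells, was at 244.6, 274.3, 302.5 and 244.0 RPM in this order. For miR-155-5p, of activated immune cells, the values were 71.3, 70.3, 55.2 and 62.7 RPM. The erythroid miRNA miR-451a was at 18.7, 29.97, 4.09 and 8.03 RPM in the same order. Of the 12 miRNAs of other tissues, 2 were expressed, miR-200c-3p (epithelium, between 28.3 and 44.6 RPM) and the endothelial miR-126a-3p (between 9.82 and 13.2 RPM). The other epithelial miRNA listed, miR-141-3p, was only between 0.44 and 1.08 RPM. Of the neuronal miRNAs, miR-124-3p was at 0 in every library, but miR-9-5p was at 4.06, 4.97, 3.39 and 3.87 RPM in WT A, WT B, KO and 3′F. The summed level of the 12 was highest in WT B, at 67.99 RPM, with 54.5 RPM in WT A, 50.5 in 3′F and 49.5 in KO. The blood list summed to 2813 RPM in KO, where it was highest, to 2514 and 2463 RPM in WT B and WT A, and to 2403 RPM in 3′F. Of the blood list, 5 of 7 were expressed, with median log2 ratios to the WT mean of 0.11 for KO and -0.09 for 3′F, and 1 of them, miR-451a, was at least 2-fold below both WT libraries in each mutant. Of all expressed miRNAs, 3.59% in KO and 0.797% in 3′F were at least 2-fold above both WT libraries or below both. In 3′F these were miR-451a and miR-146a-5p, the targeted miRNA itself, which also counts among those in KO. The other list had 0 such calls, which with 2 expressed members says little about that list. Its stromal miRNAs were too low to be expressed, and all were lower in both mutants than in both WT libraries. In WT A, WT B, KO and 3′F, miR-143-3p was at 4.74, 4.91, 2.10 and 2.22 RPM. Near the floor, miR-145a-5p was at 0.18, 0.18, 0 and 0 RPM and miR-214-3p at 0.18, 0.44, 0.10 and 0.12 RPM. In bulk RNA, fewer cells of a type and less RNA per cell cannot be told apart.

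Both arms also differed between the WT libraries. On the log2(RPM + 1) scale, WT A exceeded WT B by 0.66 for miR-142a-5p and by 0.62 for miR-142a-3p, or 1.58-fold and 1.53-fold. Ordered by WT A minus WT B, the arms had ranks 1 and 2 of the 251 expressed miRNAs, followed by miR-188-5p at 0.55. Both were at least 1.5-fold higher in WT A, which held for 0.797% of expressed miRNAs, that is, for the arms alone. This threshold was chosen after the values were seen. The median difference over expressed miRNAs was -0.07, with quartiles of -0.24 and 0.09. Differences in the other direction reached -0.96, and by size alone the arms had ranks 5 and 8. No expressed miRNA was 2-fold apart between the WT libraries (0%). Under 4 other scalings of the libraries the difference of the arms was between 0.61 and 0.80. WT B was the least deeply sequenced library, and the part of depth in the difference was not tested.

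**Figure D2:**
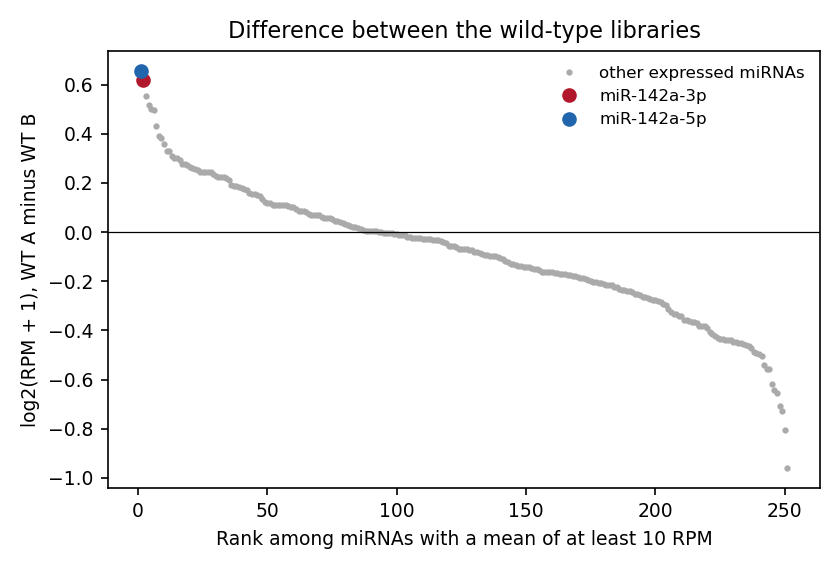
WT A minus WT B in log2(RPM + 1) for the 251 expressed miRNAs, in descending order, 1 point per miRNA. miR-142a-5p (blue, 0.66) and miR-142a-3p (red, 0.62) are the 2 highest points, and the lowest point is at -0.96.

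Against this spread, the mutants showed no change of either arm by the rule used here, in which a miRNA is called when it is 2-fold or more above both WT libraries or below both. In KO, 0 of the 2 arms were called, where 3.59% of expressed miRNAs were. In 3′F, 0 of the 2 arms were called, where 0.797% were. For miR-142a-5p the log2 ratio to the WT mean was 0.04 for KO and -0.04 for 3′F, and the medians over expressed miRNAs were 0.01 and -0.08. Its sign depended on the WT library, with -0.29 in KO and -0.37 in 3′F against WT A, and 0.37 and 0.29 against WT B. The sign relative to the WT mean also changed in KO when miR-21a-5p was left out of the total (-0.02), and in 3′F with edgeR's TMM factors (0.04) and DESeq2's size factors (0.03).

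For miR-142a-3p the log2 ratio to the WT mean was -0.32 in KO and -0.37 in 3′F. Counted from the lowest ratio, these had ranks 49 and 24 of the expressed miRNAs. Both ratios depended on WT A. Against WT A alone they were -0.63 and -0.68, and against WT B alone -0.01 and -0.07. WT A is the WT library with the same culture letter as both mutants, so the comparison within the letter is the one with the lower values. Whether the letter marks a shared culture day is not given in the sources used here. The difference from WT B changed sign in KO under 3 of the 4 other scalings, reaching 0.09 with DESeq2's size factors, and in 3′F under 2 of them, reaching 0.08 with TMM. KO and 3′F differed from each other by 0.06 for miR-142a-3p and by 0.08 for miR-142a-5p. The ratios to the WT mean of both mutants share the WT libraries. Summed over both arms, the hairpin gave 1989 RPM in WT A. It gave 1290.5 RPM in WT B, close to the 1334 RPM of KO and the 1278 RPM of 3′F.

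The share of the arms is measured within a library and does not depend on its scaling. The 3p strand made up 86.5% of the 33955.5 miR-142a counts in WT A (interval 86.2 to 86.9) and 86.8% of 14725.5 in WT B (86.3 to 87.4). It made up 83.6% of 25460.5 counts in KO (83.1 to 84.0) and 83.8% of 20702 in 3′F (83.3 to 84.3). The WT libraries, although 1.53-fold apart in the level of miR-142a-3p, were close in arm use, and both mutants lay below both of them. The WT mean was 86.7% ± 0.232 (SD, n = 2 libraries), and KO and 3′F were lower by 3.12 and 2.92 percentage points. The mutants differed from each other by 0.206 percentage points, less than the 0.329 between the WT libraries. In reads, there were 6.42 (WT A) and 6.60 (WT B) 3p reads for each 5p read, against 5.08 (KO) and 5.16 (3′F).

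The same ratio was taken for the 127 hairpins that had 10 or more counts of each arm in each library and a summed mean of 10 RPM or more. The log2 ratio of 3p to 5p lay below both WT libraries in both mutants for 18.9% of them (24 hairpins), and lay above both for 22.8% (29 hairpins), so such a separation of mutants from WT was not uncommon. The gap between the lower WT value and the higher mutant value was 0.31 for mir-142a, which had rank 4 of the 127 in this direction and rank 8 when gaps in either direction were counted. The hairpins with a larger gap in the same direction were mir-450a-1 (0.65), mir-1933 (0.51) and mir-26a-2 (0.42). In the other direction, 4 had a larger gap, namely mir-486a (0.84), mir-1981 (0.38), mir-877 (0.36) and mir-674 (0.32). With at least 50 counts of each arm, 19.4% of 98 hairpins lay below both WT libraries in both mutants, and mir-142a had rank 2, or rank 4 over both directions. The log2 arm ratio of mir-142a differed from the WT mean by -0.36 in KO and -0.34 in 3′F, where the median size over hairpins was 0.25 and 0.20. Between WT A and WT B it differed by -0.04, against a median size of 0.25. Hairpins that produce the same mature miRNA share reads and are not independent. For comparison, the mir-223 hairpin had log2 ratios of 1.51 and 1.13 in WT A and WT B and of 1.01 and 1.36 in KO and 3′F, so that 3′F lay between the WT libraries. No test of these differences was run, since each mutant has 1 library.

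**Figure D3:**
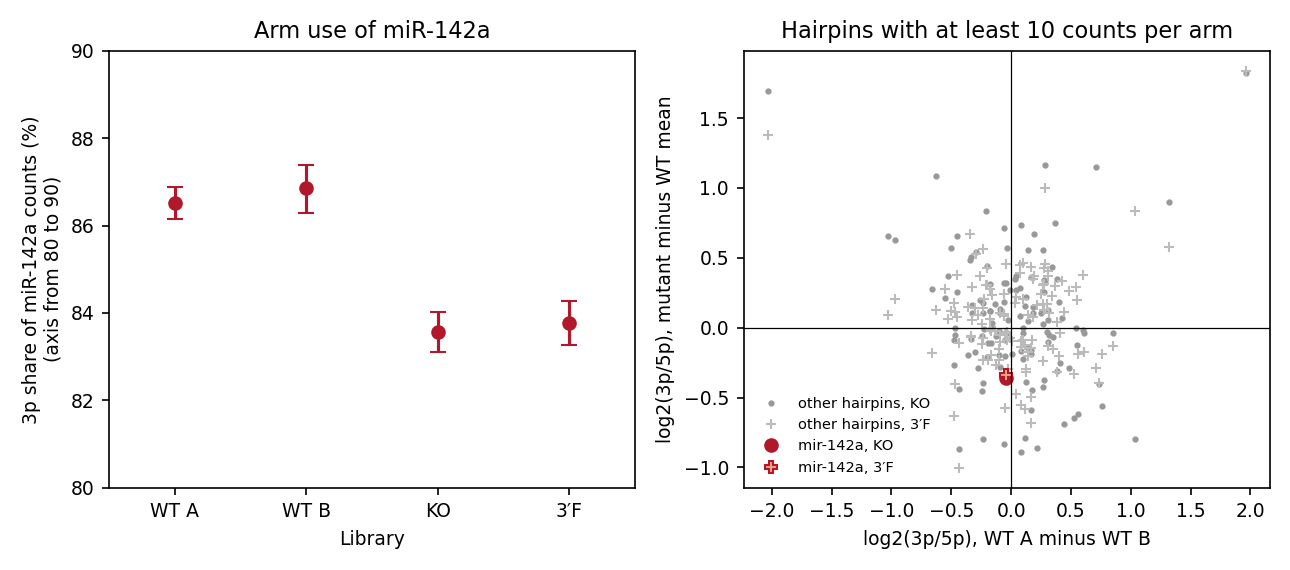
Left, the 3p share of miR-142a counts in percent (the axis does not start at 0) in each library, with exact 95% counting intervals. Right, log2(3p/5p) of 127 hairpins, mutant minus WT mean against WT A minus WT B, with gray points for KO, gray crosses for 3′F and mir-142a in red. The mutants sit at 83.6% and 83.8% and the WT libraries at 86.5% and 86.8%, and mir-142a lies near 0 on the horizontal axis and at -0.36 and -0.34 on the vertical axis.

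mir-142a is a hairpin with an appreciable share of both strands. Over the 4 libraries the less read arm, 5p, took 14.8% of its counts on average. Of 177 hairpins with both arms listed and at least 10 RPM, the less read arm took a median of 1.73%, and it took at least 10% in 50 hairpins. By this share mir-142a had rank 33. The 3p strand was the more read one in 74 of the 177.

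Likeness of pattern was measured as the root mean square difference of log2(RPM + 1), each miRNA centered on its own mean over the 4 libraries. Nearest to miR-142a-5p were miR-30d-3p (0.08), miR-181d-5p (0.13) and miR-30c-1-3p (0.13), against a median distance of 0.31. Nearest to miR-142a-3p were miR-32-5p (0.11), miR-30d-3p (0.13) and miR-29b-3p (0.13), against a median of 0.34. All 5 were higher in WT A than in WT B, which their choice by likeness to the arms favored. miR-30d-3p, the strand opposite miR-30d-5p and near to both arms, ran from 78.2 RPM in WT B over 85.3 in 3′F and 87.1 in KO to 111 in WT A. miR-32-5p was also highest in WT A, at 95.4 RPM, followed by WT B (67.1), KO (62.6) and 3′F (51.9). The arms were 0.17 from each other. By distance, miR-142a-3p had place 15 for miR-142a-5p, and miR-142a-5p had place 8 for miR-142a-3p. With 4 libraries such closeness is a description, and 1 of the 3 names of each arm stayed with a minimum level of 1 RPM.

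**Figure D4:**
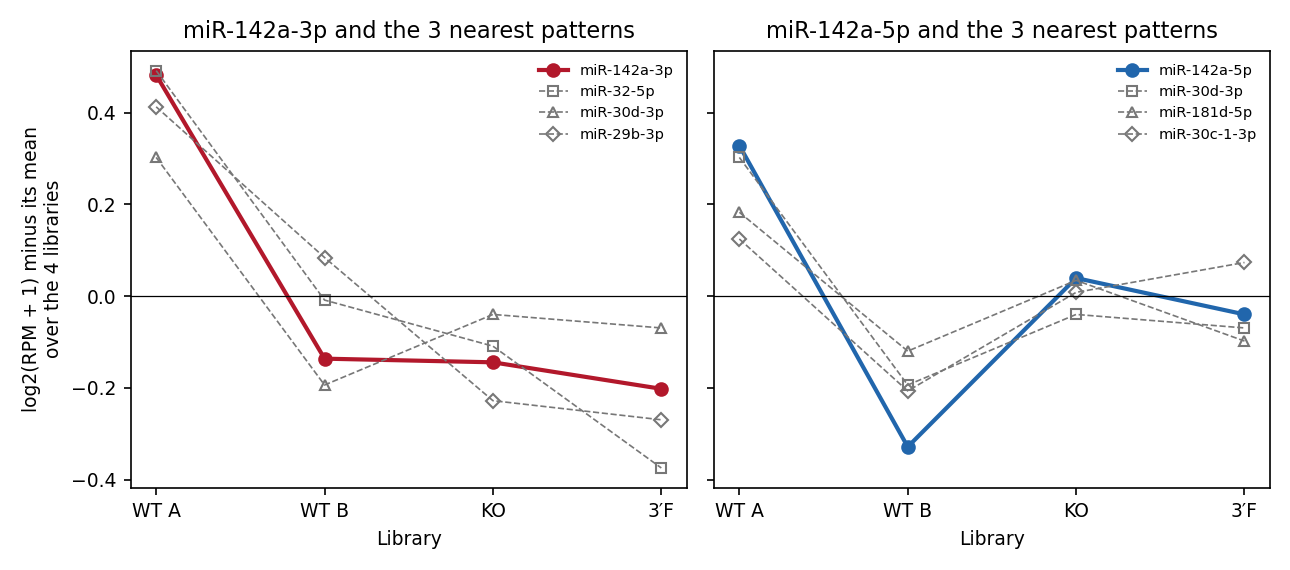
log2(RPM + 1) minus its mean over the 4 libraries, for miR-142a-3p (left, red) and miR-142a-5p (right, blue) with the 3 expressed miRNAs nearest to each in gray. The lines only join values of 1 miRNA. In both panels all of the miRNAs are highest in WT A, which the choice by likeness favors.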

How the data were processed

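Small RNA was sequenced from 4 BMDM libraries (NEBNext Small RNA kit, inserts of about 18 to 35 bases). Per the labels' processing notes, adapters were trimmed with cutadapt 1.8.3. The aligner, counter, genome build and miRNA release are not given in the sources used here. The authors deposited estimated counts, with fractions for shared reads, and RPM values over all 2129 lines. All sample columns were used.

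From these, the line with the highest summed count was kept per mature miRNA. Ratios used log2(RPM + 1), which understates changes of low miRNAs. Expressed meant a mean of at least 10 RPM, and called meant above both WT libraries by 2-fold or more, or below both. No p-value was computed. Fractional counts were rounded for intervals. The mature miRNAs named are both arms, miR-142b, their neighbors in rank, the 3 nearest patterns of each, and the listed blood and tissue miRNAs. miR-188-5p, miR-200c-3p, miR-124-3p, miR-146a-5p (the mutated miRNA) and the hairpins with larger arm gaps, named after their values were seen, fall outside this rule. The members and lists were chosen with earlier results of these data known. The functions were tested on simulated data, in which the changes planted in KO exceeded the 2-fold rule. Changes as small as those of the arms, and arm shares, were not simulated. Alternatives were 4 scalings, leaving out either WT library, a pseudocount of 0.1, other minimums, folds and sets of lines. Sequences came from RefSeq (GRCm38.p6; 3 of 3 matched) and positions from GENCODE vM21. Tools were Python 3.11.15, numpy 2.4.6, pandas 2.3.3, scipy 1.17.1, matplotlib 3.10.9, RNAfold 2.7.2, R 4.3.3, edgeR 4.0.16 and DESeq2 1.42.0.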

Additional observations from a re-analysis of the deposited data

How the results depend on the processing

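No paired analysis was possible because KO and 3′F share only the culture letter A with WT, 1 library each, and a block needs at least 2 shared letters. Within letter A, that is without WT B, the log2 ratios were the lowest values of the ranges obtained with 1 WT library dropped. The log2 ratios of both arms and their difference between the WT libraries moved by less than the WT SD under each alternative run. The same held for the 3p shares with their counts rounded down. For leaving out a WT library this was fixed in advance, since the mean of 2 libraries then moves by less than their SD. For that alternative it does not show that the ratios are stable. Over 40 combinations of arm, mutant and setting, 0 calls were made. The alternatives for the rank by WT A minus WT B, the 1.5-fold threshold between WT libraries, the ranks over both directions and the minimum of 50 counts per arm were chosen after seeing the data. At 1.5-fold from WT A alone, 2 calls would be made, miR-142a-3p in KO and in 3′F. The share of expressed miRNAs so called was not computed, so they cannot be read as an excess. By WT A minus WT B miR-142a-3p had rank 2, so the calls use the WT library where it was high.

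With miR-21a-5p left out of the total, every level rose because the total shrank. miR-142a-5p was then at 432, 258, 329 and 321 RPM (WT A, WT B, KO, 3′F) and miR-142a-3p at 2771, 1702, 1673 and 1659 RPM. Among miRNAs with whole counts only, a shorter list, the ranks in the same order became 44, 58, 49 and 50 for miR-142a-5p and 10, 22, 20 and 19 for miR-142a-3p. Of the 3 nearest patterns of each arm, 1 stayed among the 3 at a minimum of 1 RPM. At 100 RPM 0 stayed, which the filter fixed, because none of these miRNAs had a mean of 100 RPM. With a minimum of 1 RPM, the arms had ranks 3 and 4 by WT A minus WT B. They had ranks 1 and 2 at 100 RPM, with a pseudocount of 0.1 and when added to the expressed miRNAs with whole counts. At 1.5-fold in either direction, 9 expressed miRNAs were apart between the WT libraries.

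The number of expressed miRNAs called in KO, 9, became 14 without miR-21a-5p in the total, 17 with a minimum of 1 RPM or none, 3 with 100 RPM, 27 at 1.5-fold and 4 at 3-fold. Leaving out either WT library gave 13 to 15. In 3′F the number, 2, became 1 with a minimum of 100 RPM, 6 at 1.5-fold and 1 at 3-fold, and 2 to 5 when WT A or WT B was dropped. With 1 WT library dropped, the log2 ratios were from -0.29 to 0.37 (KO) and -0.37 to 0.29 (3′F) for miR-142a-5p, and from -0.63 to -0.01 and -0.68 to -0.07 for miR-142a-3p. For these changes the cause was not tested.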
